A study of Homo sapiens with 6 samples.

Results

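The 52 genes described here encode proteins that build the ribosome: RNA polymerase I and its initiation factors, the snoRNP proteins that modify ribosomal RNA, nucleolar chaperones, and the assembly factors of the small (40S) and large (60S) subunits. They were given as a list of gene symbols chosen by function, in a rule that uses no measured value but was proposed with earlier results of these data known. All 52 were found among the 21293 genes of the deposited table, 51 under their own symbol and UTP4 under its older symbol CIRH1A. Each had a mean normalized count of at least 10 and was tested, among 14395 genes in all. The data are RNA-seq of H2087-LCC, a human lung adenocarcinoma line that the labels call a dormant metastatic derivative, selected in animals for its capacity to stay latent. Cells received SB505124 (SB), an inhibitor of the TGF-β type I receptor, for 3 days, TGF-β for 3 days, or TGF-β for 7 days, with 2 libraries in each of the 3 groups and no other allele or agent named. The normalized counts of a library summed to between 34306283 and 36340734. The study describes each pair of libraries as technical replicates, so the p-values measure only the spread between libraries. SB was sampled at 3 days alone, so longer TGF-β treatment and longer culture cannot be told apart, and both comparisons with SB share the same SB libraries.

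Ribosome production starts in the nucleolus, where RNA polymerase I transcribes the ribosomal DNA into one long precursor RNA. Box C/D and box H/ACA snoRNPs methylate and pseudouridylate that precursor, the small subunit (SSU) processome and the 60S assembly factors fold and cut it while ribosomal proteins join, and the pre-subunits are exported to the cytoplasm. Many of these genes are known targets of the transcription factor MYC, and their output is known to track cell growth and division. The libraries were made with a kit that selects polyadenylated RNA, so they report the mRNAs of these factors and not the ribosomal RNA itself. In bulk RNA, fewer cells making a transcript and less of it per cell cannot be told apart, and the normalized count gives a gene's share of the library rather than its amount per cell.

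Nearly the whole list was lower after 7 days of TGF-β, and little of that was seen at 3 days. Relative to SB, 48 of the 52 genes fell at 7 days and none rose, with a median log2 fold change of -0.73, which leaves a median level of 60.5% of SB. Across all genes tested, 26.9% were lower and 27.7% higher in that comparison, with a median of -0.001. Both 7-day libraries lay below both SB libraries for 50 of the 52 genes, against 38.6% of all genes tested. At 3 days, 9 of the 52 genes were lower and none higher, with a median of -0.14. That share of calls is close to the background, in which 14.0% of all genes were lower and 14.9% higher, with a median of -0.022. In direction alone, 44 of the 52 genes had a log2 fold change below 0 at 3 days, against 7563 of the 14395 genes tested. Both 3-day libraries lay below both SB libraries for 27 genes, against 32.9% of all genes. Between 7 days and 3 days of TGF-β, 44 genes were lower and none higher, with a median of -0.55, where 16.2% of all genes were lower, 17.0% were higher and the median was 0.019. Both 7-day libraries lay below both 3-day libraries for 50 of the 52 genes, against 32.9% of all genes. At an unadjusted p under 0.05, 20 genes were lower at 3 days and 49 at 7 days relative to SB, and again none was higher. No share of all genes at that threshold is given here, so these counts are not set against a background. The calls are from limma with Benjamini-Hochberg adjustment over all genes tested at 0.05. An exact permutation test of 2 against 2 libraries (two-sided) cannot go below p = 0.333.

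The same course was visible in the share of each library that the 52 genes took up together. Their summed normalized counts were 1.17% and 1.12% of the library total with SB, 1.02% and 0.976% after 3 days of TGF-β, and 0.666% and 0.669% after 7 days. The groups did not overlap. NPM1 and NCL, the most abundant of the 52 genes, made up between 37.9% and 42.3% of these sums. Without them the share still went from 0.675% and 0.652% in SB to 0.413% and 0.409% at 7 days. Gene by gene, the median log2 level relative to the SB mean was -0.14 in both 3-day libraries, and it was -0.65 and -0.80 at 7 days.

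**Figure D1:**
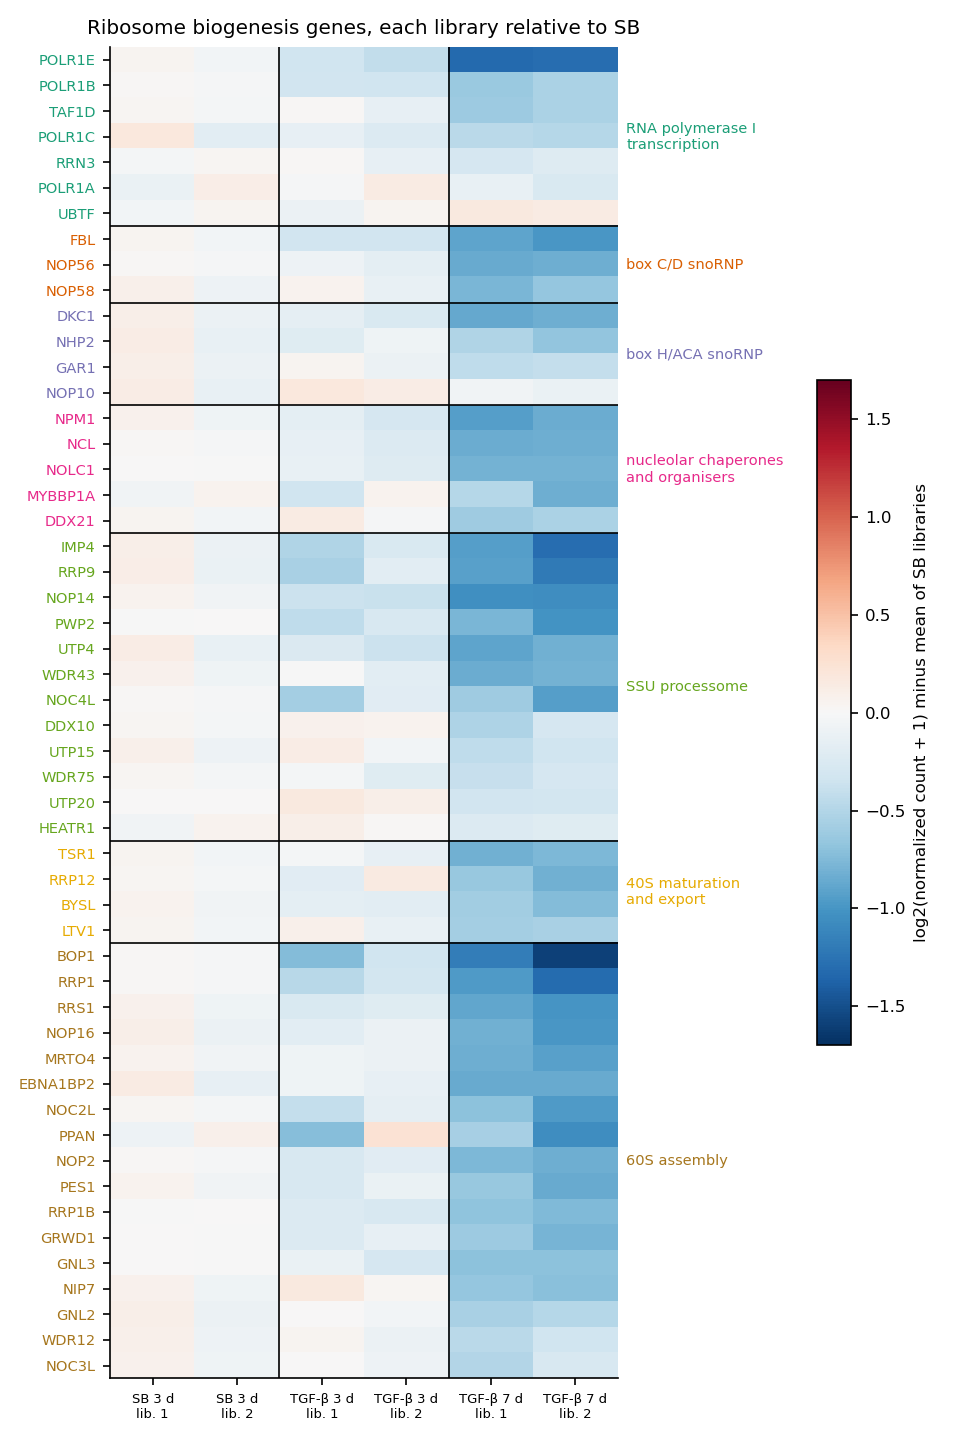
Heat map of the 52 genes (rows, grouped by role) in the 6 libraries (columns), with colour for log2(normalized count + 1) minus the mean of the SB libraries. The 7-day columns are below the SB mean (blue) in both libraries for 51 of the 52 genes, faintly so for NOP10 and POLR1A, while UBTF is above it in both. The 3-day columns are paler, with both libraries below the SB mean for 32 of the 52 genes.

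The calls fell into 4 patterns over time. Of the 52 genes, 9 were lower in all 3 comparisons: POLR1B, POLR1E, FBL, UTP4, PWP2, NOP14, BOP1, RRP1 and RRP1B. A further 35 were past the threshold only in the comparisons of 7 days, with SB and with 3 days. Another 4 (POLR1C, RRN3, WDR75 and NOC4L) were lower at 7 days relative to SB but past the threshold in neither other comparison, and 4 (POLR1A, UBTF, NOP10 and PPAN) were past it in none. At 3 days, 30 genes had reached less than 25% of their 7-day log2 change, counting genes on the other side of SB, 21 had reached between 25% and 50%, and 1, POLR1B, had reached more, at 56.9%. The 9 calls at 3 days rest on single libraries, since 3 or 5 remained when an SB library was left out and 1 or 4 when a 3-day library was left out. NOP14 was the gene that kept its call in each of these fits. The number lower at 3 days was also 18 with equal library totals and 2 in limma without the trend. Over all genes, 4371 and 2966 were called in either direction under these settings, against 4170 in the fit used here. The median of all genes was -0.077 with equal library totals, against -0.022. The count of 48 at 7 days ranged from 41 to 48 when each library was left out. The calls of HEATR1 and RRN3 were lost in several of those fits, those of DDX10, NOC3L, UTP15, WDR12 and WDR75 were lost without the first 7-day library, and those of NOC3L, POLR1C and UTP15 without the first SB library.

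**Figure D2:**
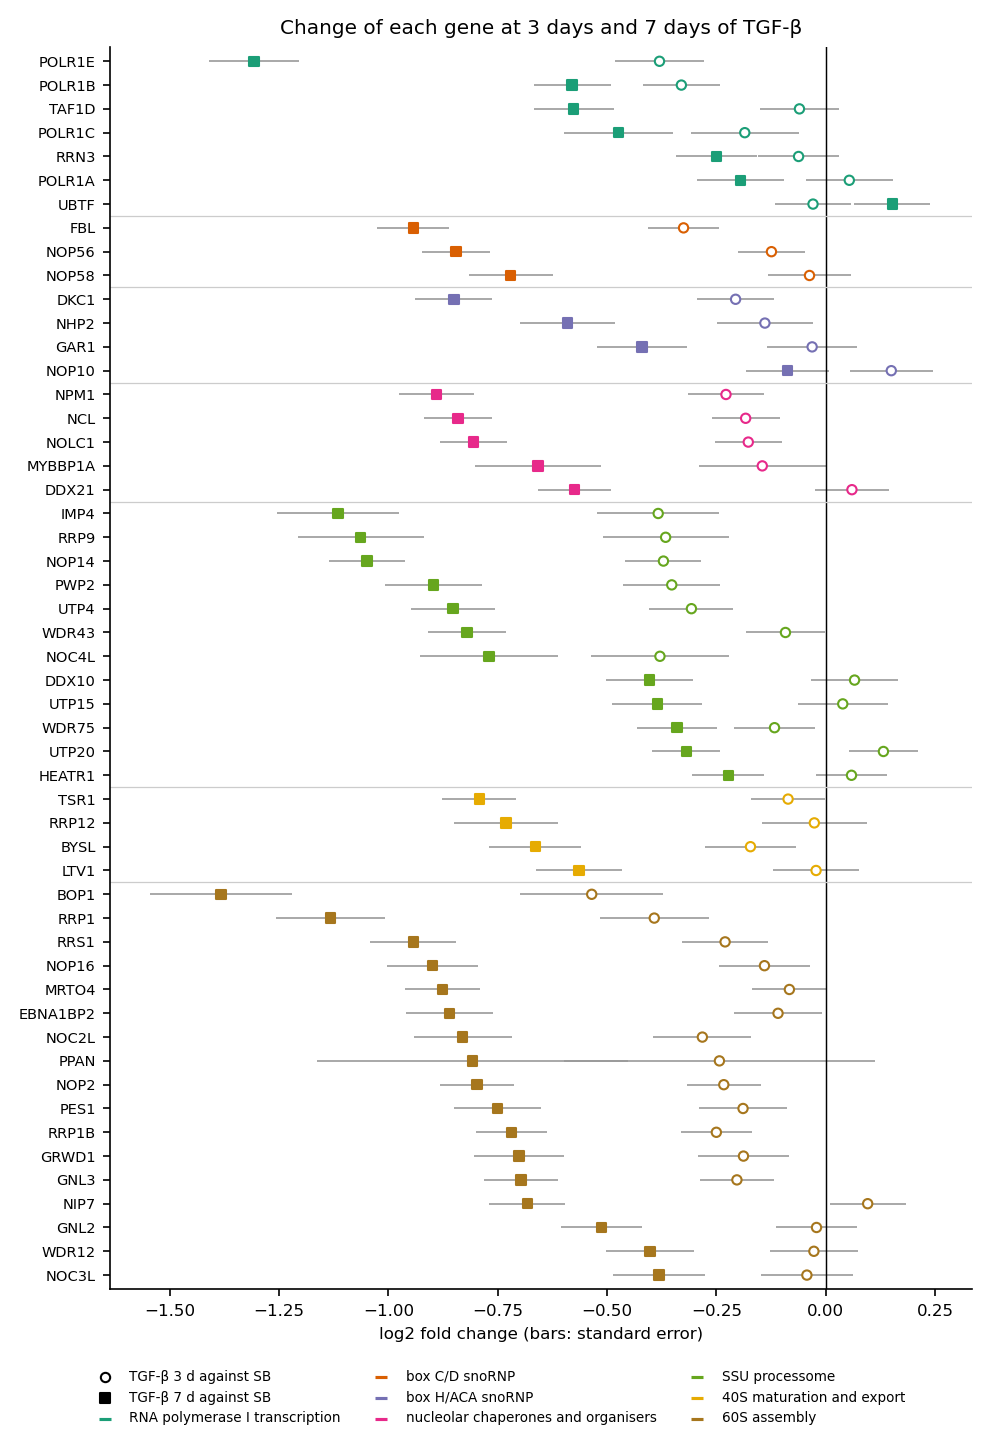
Log2 fold change relative to SB of each gene after 3 days (open circles) and 7 days (filled squares) of TGF-β, with the standard error as a bar and the role as the colour. The 7-day value lies left of the 3-day value for every gene except UBTF, and 6 genes lie below -1 at 7 days.

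Many of the promoters held the E-box CACGTG, the sequence known to be bound by MYC with its partner MAX and by several other factors of the same class. Promoter windows of 300 bases, from 250 before to 50 after the annotated start, were available from RefSeq (GRCh38.p14) for 45 of the 52 genes. Both strands were searched at once, since the motif is its own reverse complement. It was present in 21 of the 45 genes (46.7%), and each of the 21 had a copy within 50 bases of the start. Among the 10355 genes tested that have a window, 12.5% held the motif and 5.21% held it within 50 bases, and 7.26% of all 35116 windows of the table held it. The median GC content of the windows was 63.3% for the 45 genes and 64.7% for the genes tested. The 21 genes with the motif had a median log2 fold change of -0.75 at 7 days relative to SB, and the 24 without it -0.64. The ranges of both parts overlapped widely, from -1.12 to -0.087 with the motif and from -1.13 to 0.15 without it. Some related lists also held it often, among them 37.5% of 16 RNA polymerase III genes. It was in 31.0% of 29 other SSU and 40S factors and 28.1% of 32 other 60S factors. It was less frequent in 15.4% of 13 RNA exosome and precursor nuclease genes and 12.5% of 8 other RNA polymerase I factors. It was in 0 of 4 RNA polymerase II subunits and 6.35% of 63 ribosomal protein genes. The motif was common among the 45 genes, and whether its presence goes with the size of the fall was not tested. The 7 genes without a window include BOP1 and POLR1E, which had the largest 7-day falls. A match is a description of the letters and not evidence of binding.

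Some of these sites are shown with the E-box in capitals, for the 6 genes that hold one within 50 bases of the start and are among the 3 with the largest 7-day change in their role group, and for NOP10, which was not called at 7 days. Positions count from 1 at the first base of the annotated start, with negative numbers before it, and coordinates are from a unique match of each stretch to its chromosome in GRCh37.
IMP4: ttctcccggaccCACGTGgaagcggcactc
RRP9: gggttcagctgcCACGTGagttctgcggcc
NOP14: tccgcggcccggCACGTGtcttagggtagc
FBL: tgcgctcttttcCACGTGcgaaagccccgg
BYSL: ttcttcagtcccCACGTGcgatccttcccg
GAR1: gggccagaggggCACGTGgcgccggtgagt
NOP10: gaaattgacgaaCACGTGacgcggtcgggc

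The lines run from the gene that fell most at 7 days to the gene that fell least. The E-box begins at position 16 in IMP4 (chr2:131100473-131100502, plus strand) and at -5 in RRP9 (chr3:51975908-51975937, minus strand). It begins at 16 in NOP14 (chr4:2965101-2965130, minus strand) and at 7 in FBL (chr19:40336996-40337025, minus strand). It begins at 29 in BYSL (chr6:41889253-41889282, plus strand), at 32 in GAR1 (chr4:110736937-110736966, plus strand) and at -11 in NOP10 (chr15:34635331-34635360, minus strand). IMP4 and NOP10 each have a further copy upstream, at -203 and -170, and they lie at opposite ends of the 7-day changes among the genes with the motif.

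**Figure D3:**
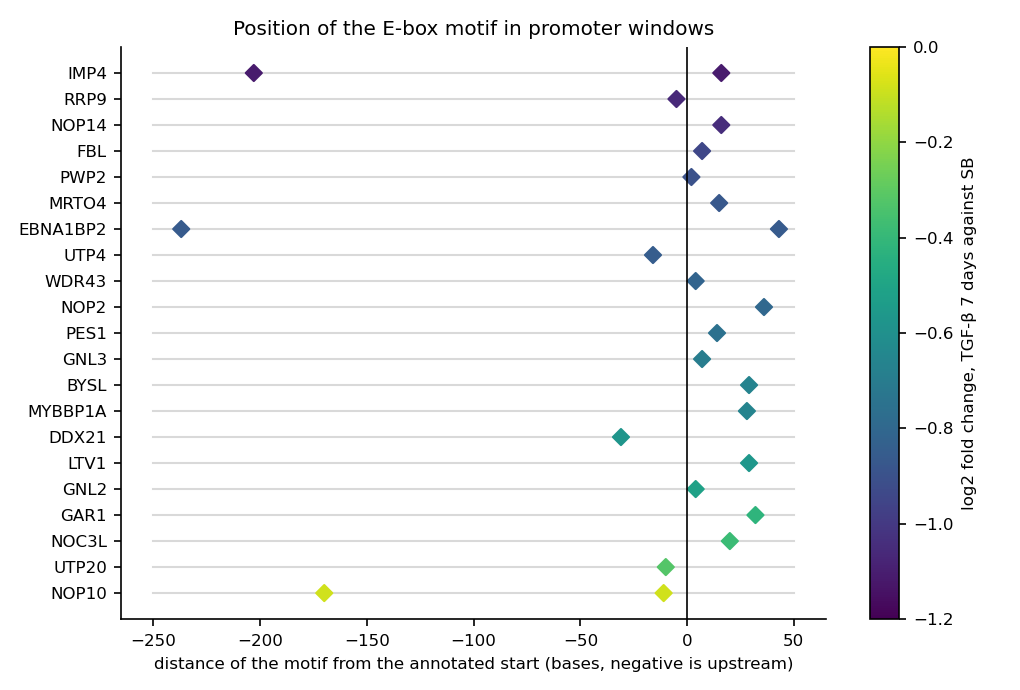
Position of each E-box in the promoter windows of the 21 genes that hold it, in bases from the annotated start, ordered and coloured by the log2 fold change at 7 days relative to SB. A copy lies within 50 bases of the start in all 21 genes, from IMP4 (-1.12) to NOP10 (-0.087). IMP4 and NOP10 have a further copy upstream of the same start, at -203 and -170. The sites of EBNA1BP2, at -237 and 43, are counted from different annotated starts.

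The RNA polymerase I group was the most uneven. Of its 7 genes, 5 fell at 7 days relative to SB, with a median of -0.47 and a range from -1.31 to 0.15. POLR1E (chromosome 9 of GRCh37, 37485945 to 37503694), a subunit of the polymerase with a role in initiation and elongation, had normalized counts of 1573 and 1482 in SB, 1207 and 1140 at 3 days, and 612 and 621 at 7 days. The 3 groups were apart at each step. At 3 days the log2 change of POLR1E (-0.38, adjusted p = 0.0152) passed the threshold, but not without the first SB library or either 3-day library. It reached -1.31 at 7 days (standard error 0.10, adjusted p = 8.24e-07), a level 59.6% below SB. POLR1B, which encodes the second largest subunit, which forms the catalytic cleft with the largest, had counts of 3079 and 2973 in SB, 2416 and 2397 at 3 days, and 1957 and 2092 at 7 days. Its groups did not overlap either, and the 7-day change was -0.58 on the log2 scale (adjusted p = 0.000168). The further step of POLR1B from 3 days to 7 days, -0.25 (adjusted p = 0.0463), was lost when either 3-day or either 7-day library was left out. TAF1D, a subunit of the promoter selectivity factor SL1, had counts of 3518 and 3372 in SB, 3485 and 3133 at 3 days, and 2254 and 2367 at 7 days. It overlapped SB at 3 days and was below both SB libraries at 7 days (-0.58, adjusted p = 0.000224). POLR1C, a subunit shared with RNA polymerase III, had a 7-day change of -0.47 (adjusted p = 0.00672), which was not past the threshold without the first SB library.

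The largest subunit, the upstream factor and the recruiting factor of the same machinery moved less in the libraries as deposited. POLR1A (chromosome 2, 86247339 to 86333278), the largest and catalytic subunit, had counts of 4474 and 5207 in SB, 4740 and 5295 at 3 days, and 4409 and 4034 at 7 days. Both 7-day libraries were lower than both SB libraries, but the 2 SB libraries differed by more than the step to the nearer 7-day library, and the log2 fold change of -0.20 was not past the threshold (standard error 0.10, adjusted p = 0.120). Correcting the libraries for base composition and transcript length moved POLR1A to -0.61 (adjusted p = 1.57e-05), and it was also past the threshold without the first SB library. UBTF (chromosome 17, 42282401 to 42298994), which encodes the factor UBF that marks active ribosomal DNA, had counts of 3911 and 4134 in SB, 3750 and 4141 at 3 days, and 4525 and 4411 at 7 days. It was the 1 gene of the 52 with both 7-day libraries above both SB libraries, by 0.15 on the log2 scale (standard error 0.09, adjusted p = 0.159), and it was 0.032 (adjusted p = 0.586) with the correction for base composition and length. RRN3, which encodes the initiation factor TIF-IA that recruits the polymerase, had counts of 2655 and 2783 in SB, 2749 and 2466 at 3 days, and 2234 and 2338 at 7 days. Its change at 7 days was small, -0.25 (adjusted p = 0.0376), and the adjusted p was above the threshold under several settings, up to 0.0875 with all libraries kept and 0.196 without the first 7-day library. RRN3 has 3 annotated pseudogenes, as do NOP56 and NIP7, so their counts of uniquely mapped reads are uncertain. Other genes of the 52, such as NCL, NHP2 and PES1, have 2.

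**Figure D4:**
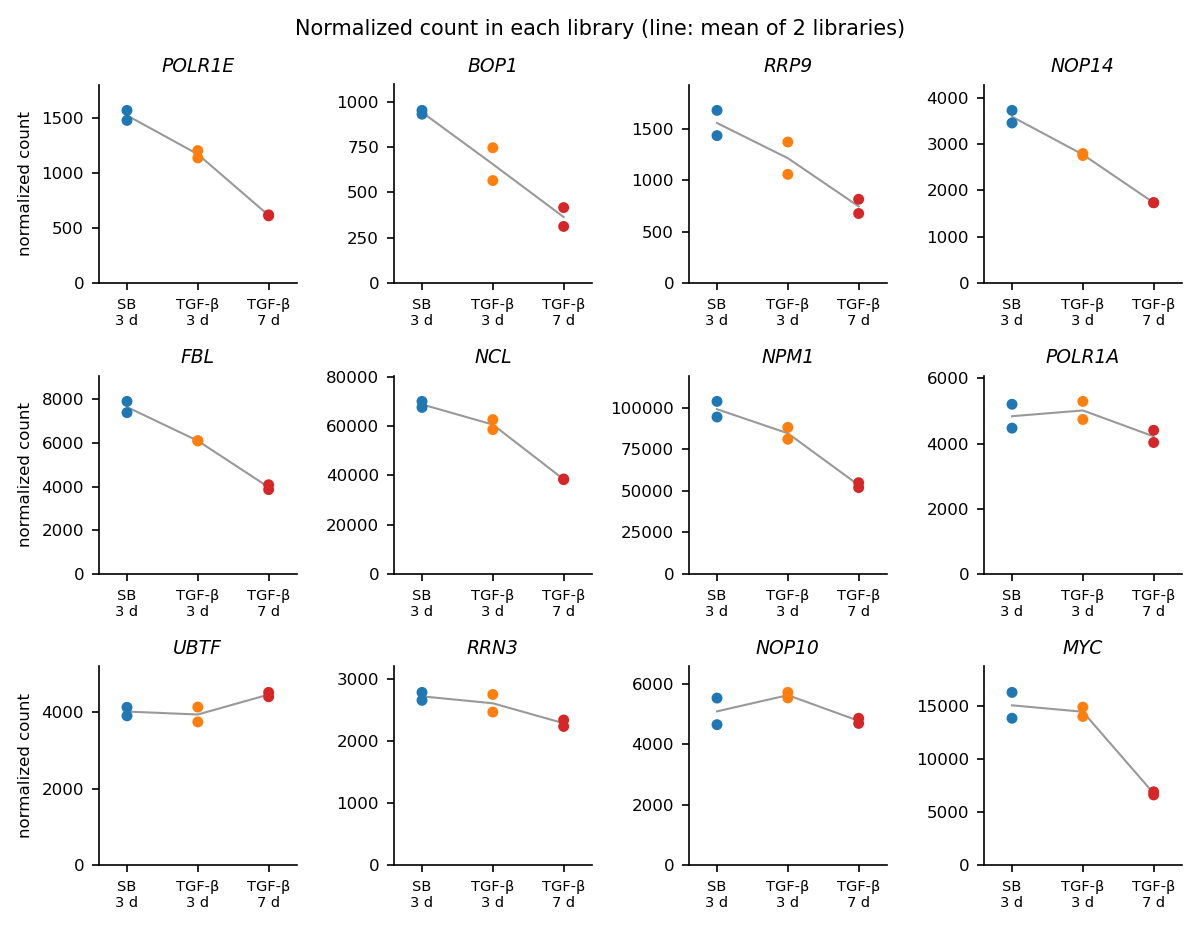
Normalized count in each library (points) for 11 of the 52 genes and for MYC, with a line through the means of 2 libraries and each axis starting at 0. POLR1E, BOP1, RRP9, NOP14, FBL, NCL and NPM1 step down to 7 days, POLR1A, UBTF, RRN3 and NOP10 stay nearer their SB level, and MYC drops between 3 days and 7 days.

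All 3 box C/D snoRNP proteins of the list, whose particles carry out 2'-O-methylation of ribosomal RNA, fell at 7 days. FBL (chromosome 19, 40325098 to 40337019), the methyltransferase fibrillarin, had counts of 7903 and 7387 in SB, 6103 and 6093 at 3 days, and 4086 and 3865 at 7 days. FBL was already lower at 3 days (-0.33, adjusted p = 0.0109), a call lost without either 3-day library, and at 7 days it was 48.0% below SB (log2 fold change -0.94, standard error 0.08, adjusted p = 2.02e-06). NOP56, a core scaffold protein of the same particle, had counts of 13259 and 12846 in SB, 12343 and 11623 at 3 days, and 7197 and 7333 at 7 days. Its partner NOP58 had counts of 9211 and 8120 in SB, 8982 and 7912 at 3 days, and 5043 and 5466 at 7 days. For both, most of the step fell after 3 days, with 7-day changes of -0.85 for NOP56 and -0.72 for NOP58, of which 14.7% and 5.14% had been reached at 3 days.

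The box H/ACA proteins, whose particles pseudouridylate ribosomal RNA and which also sit in telomerase, were less uniform, since 3 of 4 fell. DKC1, the pseudouridine synthase dyskerin on the X chromosome, had counts of 9796 and 8609 in SB, 8234 and 7696 at 3 days, and 5034 and 5154 at 7 days. The 7-day libraries were far below the others (-0.85, standard error 0.09, adjusted p = 9.05e-06). The partner NHP2 had counts of 3203 and 2686 in SB, 2544 and 2789 at 3 days, and 2062 and 1840 at 7 days, with a 7-day change of -0.59 (adjusted p = 0.000705). GAR1 had counts of 2152 and 1866 in SB, 2067 and 1862 at 3 days, and 1481 and 1515 at 7 days, a change of -0.42 (adjusted p = 0.00469). With the libraries corrected for base composition and transcript length, the 7-day change was smaller for both, -0.35 for NHP2 (adjusted p = 0.00332) and -0.20 for GAR1 (adjusted p = 0.0328). NHP2 and GAR1 overlapped SB at 3 days and were separate from it at 7 days. NOP10, the smallest of the 4 proteins, had counts of 5541 and 4658 in SB, 5729 and 5546 at 3 days, and 4870 and 4699 at 7 days. Its 7-day libraries lay within the SB range (-0.087, adjusted p = 0.460). The promoter of NOP10 carries the pair of E-boxes given above. NOP10 was past the threshold and higher at 3 days and at 7 days with the libraries corrected for base composition and transcript length, and at 3 days without the first SB library.

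The 5 nucleolar chaperones and organisers all fell at 7 days, with changes from -0.89 to -0.57. NPM1 (chromosome 5, 170814120 to 170838814), the nucleolar chaperone nucleophosmin, was the most abundant of the 52 genes per kilobase of transcript as well as in counts. Its counts were 103806 and 94426 in SB, 88195 and 81049 at 3 days, and 51966 and 54933 at 7 days, with groups that did not overlap. NPM1 fell by 0.89 at 7 days (standard error 0.09, adjusted p = 4.96e-06). It has 49 annotated pseudogenes, so its uniquely mapped count is uncertain in level. NCL, which encodes nucleolin, had counts of 70051 and 67607 in SB, 62660 and 58607 at 3 days, and 38286 and 38566 at 7 days. NOLC1, a chaperone of snoRNPs, had counts of 15903 and 15806 in SB, 14485 and 13571 at 3 days, and 9070 and 9068 at 7 days. At 7 days NCL was 44.2%, NPM1 46.1% and NOLC1 42.8% below SB, each with groups that did not overlap. Their 3-day libraries were already below SB without passing the threshold, with adjusted p-values of 0.0988, 0.0666 and 0.106. DDX21, an RNA helicase of the nucleolus, was not lower at 3 days (0.060) and fell by 0.57 at 7 days (adjusted p = 0.000131). MYBBP1A, a nucleolar MYB-binding protein, had a 7-day change of -0.66 (adjusted p = 0.00234).

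The SSU processome, the large particle that folds and cuts the 18S part of the precursor, fell as a whole at 7 days: 12 of its 12 genes were lower than SB, with a median of -0.80 and a range from -1.12 to -0.22. IMP4, which helps the U3 snoRNA pair with the precursor, had counts of 1561 and 1368 in SB, 1024 and 1225 at 3 days, and 764 and 595 at 7 days. RRP9, a protein of the U3 snoRNP itself, had counts of 1676 and 1431 in SB, 1055 and 1369 at 3 days, and 813 and 675 at 7 days. NOP14, a structural protein of the processome, had counts of 3730 and 3458 in SB, 2798 and 2754 at 3 days, and 1737 and 1734 at 7 days. In each of the 3 genes the 3-day libraries lay between SB and 7 days with no overlap, and the 7-day level was less than 50% of SB. The 7-day log2 fold changes were -1.12 for IMP4 (standard error 0.14, adjusted p = 4.20e-05), -1.06 for RRP9 (standard error 0.14, adjusted p = 7.44e-05) and -1.05 for NOP14 (standard error 0.09, adjusted p = 1.42e-06). At 3 days NOP14 was past the threshold (adjusted p = 0.00743) and IMP4 and RRP9 were not (0.0603 and 0.0786).

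The remaining SSU genes fell into a deeper and a shallower range. UTP4, PWP2, WDR43 and NOC4L, a set of scaffold proteins of the particle, had 7-day changes from -0.90 to -0.77. DDX10, UTP15, WDR75, UTP20 and HEATR1 had changes from -0.40 to -0.22. HEATR1, the shallowest, had counts of 7876 and 8595 in SB, 8805 and 8341 at 3 days, and 6988 and 7114 at 7 days. UTP20 and DDX10 had both 3-day libraries above both SB libraries, by 0.13 and 0.066 on the log2 scale, without passing the threshold (adjusted p = 0.231 and 0.661), before they fell at 7 days. The kit does not keep the strand. Parts of the exons of PWP2 (46.6%), HEATR1 (23.1%) and NOP14 (20.7%) are shared with other annotated genes, so their reads cannot be told apart there. The same holds in other groups for LTV1 (34.7%), NHP2 (28.0%) and TSR1 (26.9%), among others.

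The 4 genes of late 40S maturation and export fell at 7 days by similar amounts, with a median of -0.70 and a range from -0.79 to -0.56. TSR1, a GTPase-like factor that holds the immature 40S subunit, had counts of 5705 and 5389 in SB, 5425 and 5027 at 3 days, and 3134 and 3273 at 7 days. RRP12, which acts in export, had counts of 2235 and 2136 in SB, 1903 and 2419 at 3 days, and 1395 and 1241 at 7 days. BYSL, which encodes bystin, had counts of 1378 and 1262 in SB, 1172 and 1168 at 3 days, and 872 and 794 at 7 days. None of the 4 was past the threshold at 3 days, and all of their 7-day libraries lay below every other library. The 7-day changes were -0.79 for TSR1 (adjusted p = 1.20e-05), -0.73 for RRP12 (adjusted p = 0.000307) and -0.66 for BYSL (adjusted p = 0.000230).

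Of the 17 genes of 60S assembly, 16 fell at 7 days relative to SB, with a median of -0.80. BOP1, a member of the PeBoW complex that cuts and folds the precursor of the 28S and 5.8S RNAs, had counts of 952 and 931 in SB, 565 and 746 at 3 days, and 416 and 312 at 7 days. Its groups were apart at each step, and its 7-day change of -1.38 (standard error 0.16, adjusted p = 2.55e-05), a level 61.3% below SB, was the largest fall among the 52 genes in the fit of all libraries. The other PeBoW genes fell by less, PES1 by 0.75 (adjusted p = 6.51e-05) and WDR12 by 0.40 (adjusted p = 0.00511) on the log2 scale, and the difference between the 3 partners was not tested. RRP1 had counts of 1713 and 1667 in SB, 1219 and 1359 at 3 days, and 870 and 682 at 7 days, a change of -1.13 at 7 days (adjusted p = 1.50e-05). Its paralog RRP1B had counts of 5458 and 5513 in SB, 4670 and 4556 at 3 days, and 3426 and 3246 at 7 days, a change of -0.72 (adjusted p = 1.83e-05). Both paralogs were also lower at 3 days, with calls that were lost without either SB library. RRS1, which brings the 5S RNP into the particle, had counts of 2347 and 2140 in SB, 1877 and 1944 at 3 days, and 1216 and 1117 at 7 days, a change of -0.94 (adjusted p = 9.10e-06).

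The other 60S genes ranged from -0.90 for NOP16 to -0.38 for NOC3L at 7 days. NOP2, which encodes a methyltransferase of the 28S RNA, fell by 0.80, and more than 50% of its exonic bases (54.4%) are shared with a same-strand gene model. MRTO4 and NIP7, picked after their values were seen, kept most of their SB level at 3 days. MRTO4 had counts of 4933 and 4548 in SB, 4513 and 4429 at 3 days, and 2664 and 2499 at 7 days. NIP7 had counts of 6622 and 6035 in SB, 7075 and 6452 at 3 days, and 4000 and 3880 at 7 days. Their steps from 3 days to 7 days were -0.79 (adjusted p = 7.63e-05) and -0.78 (adjusted p = 9.49e-05). GNL3, the nucleolar GTPase nucleostemin, fell by 0.70 at 7 days, while its relative GNL2 fell by 0.51. PPAN was the 1 gene of the group not past the threshold at 7 days. Its counts were the lowest of the 52 genes, 38 and 43 in SB, 24 and 48 at 3 days, and 27 and 19 at 7 days. The change of -0.81 had a standard error of 0.36 (adjusted p = 0.0731), and 49.2% of its exonic bases are shared with P2RY11 and the PPAN-P2RY11 read-through gene.

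The rest of the ribosome assembly machinery was taken from lists that leave out the 52 genes. Relative to SB at 7 days, where 26.9% of all genes tested were lower and 27.7% higher, 6 of 8 other RNA polymerase I factors were lower and none higher (median -0.39), among them the subunits POLR1H (-1.27) and POLR1G (-1.09). Of 35 other SSU and 40S factors, 30 were lower and none higher (median -0.50), led by NOL6 (-1.49) and IMP3 (-0.92). Of 36 other 60S factors, 29 were lower and none higher (median -0.47), led by NLE1 (-0.98) and PUM3 (-0.87). Of 15 genes of the RNA exosome and precursor nucleases, 12 were lower and none higher (median -0.50). Of 77 cytosolic ribosomal proteins tested, which are the building blocks themselves, 74 were lower and none higher (median -0.51). At 3 days these 5 lists had 1, 5, 3, 0 and 28 genes lower, in the same order, and 1 SSU factor higher. Against the 14.0% of all genes that were lower at 3 days, the first 4 lists were no higher than about that share and the ribosomal proteins were above it. At an unadjusted p under 0.05 in limma, 3 exosome genes were lower at 3 days, with no share of all genes at that threshold beside it.

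The other nuclear polymerases had smaller median falls at 7 days than the lists above. Of 7 subunits specific to RNA polymerase II, 3 were lower and none higher at 7 days (median -0.20), where 26.9% of all genes tested were lower. All 7 had a log2 fold change below 0, as had 7208 of 14395 genes tested. POLR2I was at -0.61 at 3 days and at -0.63 at 7 days. Of 21 RNA polymerase III subunits and factors, 7 were lower and 3 higher (median -0.20), with POLR3K at -1.13 and POLR3C at -0.89. The share of lower RNA polymerase III genes is close to the 26.9% of all genes tested.

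**Figure D5:**
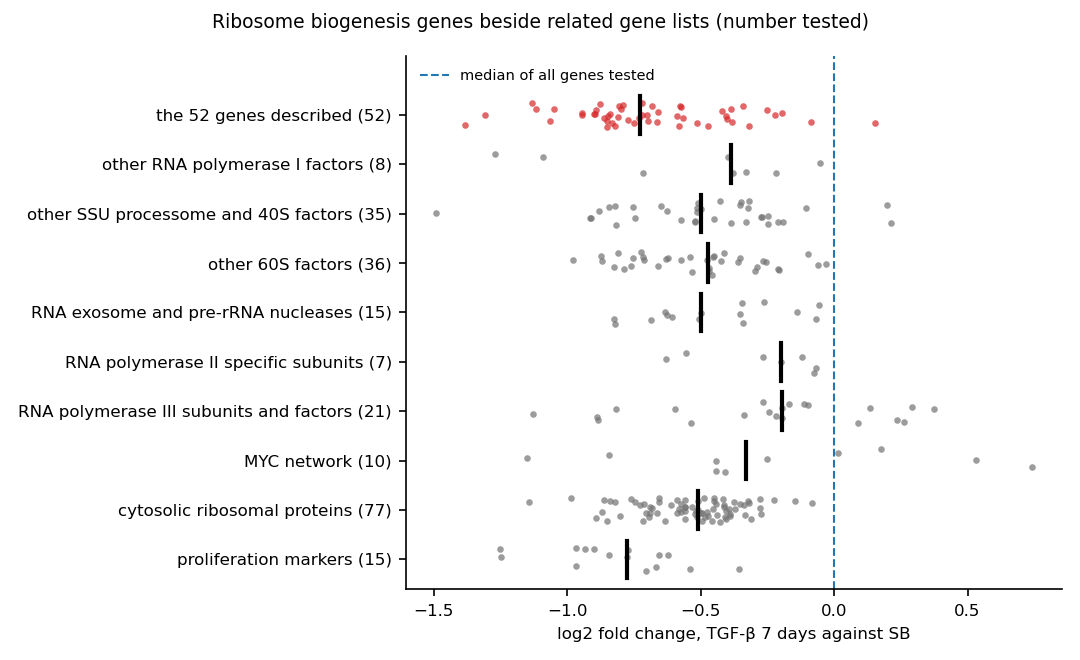
Log2 fold change of single genes (points) after 7 days of TGF-β relative to SB, for the 52 genes (red) and 9 related lists (grey), with a bar at each median and a dashed line at the median of all genes tested (-0.001). The 52 genes centre at -0.73, the other assembly lists and the ribosomal proteins between -0.39 and -0.51, and the RNA polymerase II and III lists at -0.20.

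MYC also fell mainly between 3 days and 7 days. Its normalized counts were 16285 and 13846 in SB, 14016 and 14898 at 3 days, and 6907 and 6614 at 7 days. The 3-day libraries lay within the SB range, and both 7-day libraries were less than 50% of any earlier one. MYC differed from SB by -0.055 on the log2 scale at 3 days (adjusted p = 0.691), -1.15 at 7 days (standard error 0.09, adjusted p = 9.91e-07) and -1.10 between 7 days and 3 days. In the list of MYC, its partner MAX and the competing MXD proteins, 4 of 10 genes tested were lower and 2 higher at 7 days (median -0.33). Across all genes tested, 26.9% were lower and 27.7% higher. Among the competitors, MXD3 (-0.84, adjusted p = 0.00458) and MXD1 (-0.41, adjusted p = 0.00397) were lower. MXI1 (0.53, adjusted p = 0.00211) and MXD4 (0.74, adjusted p = 0.00312) were higher. The part of MYC in the change of the 52 genes was not tested.

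Markers of dividing cells also fell by 7 days, but by the medians more of their fall was present at 3 days. All 15 proliferation markers were lower at 7 days than in SB (median -0.77). They were led by TYMS (-1.25), which makes thymidylate, and RRM2 (-1.25), a subunit of ribonucleotide reductase. At 3 days 9 of the 15 markers were lower (median -0.38), where 14.0% of all genes tested were lower. The ribosome list had a median of -0.14 at 3 days and -0.73 at 7 days. The summed counts of the markers were 171126 to 175351 in SB, 135326 to 140824 at 3 days and 97250 to 100170 at 7 days. Their part in the result was not tested. Among markers of other cell types, the sum of 8 blood, endothelial and stromal markers was 4872 to 5180 in SB, 4431 to 5108 at 3 days and 4622 to 5078 at 7 days. Nearly all of it was CD68, a lysosomal protein, so the sum says little of the other markers, and HBB was at 0 and PTPRC at 4 or less in every library. PECAM1, an endothelial marker, had 41 and 36 counts in SB, 61 and 67 at 3 days, and 56 and 53 at 7 days, and was called higher at 3 days (0.72, adjusted p = 0.0391). CDH5, of the same cell type, had 14 and 20 counts in SB, 1 and 5 at 3 days, and 2 and 0 at 7 days, too few to be tested. Of 6 epithelial markers, KRT8 and KRT18 were abundant in every library. At 7 days relative to SB, KRT18 was lower (-0.56, adjusted p = 0.000144), as were EPCAM (-1.62, adjusted p = 6.24e-08) and CDH1, which was down to 10 and 9 counts. These were 3 of the 5 epithelial markers tested, where 26.9% of all genes tested were lower. The other 2 were not below SB and not past the threshold, with the highest change at 0.243. The part of these markers in the result was not tested.

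The base composition of the transcripts moved with the differences between libraries of a group. Across the 52 genes, the GC content of the transcript, from 36.5% for TAF1D to 65.6% for BOP1, correlated with the log2 difference between the 2 libraries at 7 days (Pearson's r = 0.87, n = 52) and, with the opposite sign, at 3 days (r = -0.79). It also correlated with the log2 fold change at 3 days (r = -0.58) and at 7 days (r = -0.46), over the same libraries. These values describe genes of the same libraries and carry no test. With the libraries corrected for base composition and transcript length, 50 of the 52 genes were lower at 7 days, with a median of -0.71. Between 7 days and 3 days 47 were lower, and at 3 days 17 were lower, among them the 9 named above. Calls over all genes, in either direction, rose as well. At 3 days 5545 of 13880 genes were called, against 4170 of 14395 without the correction. At 7 days the calls were 8728 against 7851 relative to SB, and 6266 against 4775 relative to 3 days.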

How the data were processed

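Bulk RNA-seq of H2087-LCC covered 3 groups of 2 libraries, set by the treatment in the labels. The authors mapped reads to hg19, assigned unique reads to genes (HTSeq 0.6.1p1) and scaled each library by its size. The authors' scaled values were rounded to whole numbers before they were deposited (unit recorded as score, 0 values not whole), so intervals of read counting cannot be given, and the negative binomial test of the study, which needs read counts, was not used. Library totals of normalized counts lay between 34306283 and 36340734.

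Normalized counts were transformed as log2(value + 1), so fold changes of low genes are understated, and 14395 genes, those whose mean reached 10, entered limma 3.58.1 (R 4.3.3; empirical Bayes with a trend, 3 residual degrees of freedom, group as the only term, Benjamini-Hochberg at 0.05). The steps were checked on simulated counts with the same dispersion for every gene and no effect of base composition. That check does not bear on such effects in these libraries. Members, roles and lists were chosen with earlier results of these data known. Genes described in full were, in each role group, the 3 with the largest 7-day change, and POLR1A, UBTF, RRN3, FBL, DKC1, NPM1 and NCL. NOP10, PPAN, HEATR1, RRP1B, MRTO4 and NIP7 were given their counts after values were seen. Coordinates and overlaps come from GENCODE on GRCh37, and levels per kilobase use the annotated transcript. The authors' annotation release is not given in the sources used here. Alternatives tried were other pseudocounts, filters and scalings, limma without the trend, the replicate number as a block, the 4 libraries compared and each library left out. Correcting each library for base composition and transcript length (loess, span 0.5) and a crossed pairing of replicates were added after the data were seen.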

Additional observations from a re-analysis of the deposited data

How the results depend on the processing

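Over the 12 alternatives with all libraries, the genes lower at 7 days numbered 46 to 50 of 52 relative to SB and 36 to 48 relative to 3 days. At 3 days relative to SB, 9 genes were lower, and the number was 5 without the filter on low values, 18 with equal library totals, 2 without the trend, 17 with libraries corrected for base composition and transcript length, and 1 to 8 with 1 library left out. With that correction 1 gene, NOP10, was higher than SB at 3 days and at 7 days, and 0 to 1 genes were higher at 3 days with 1 library left out. The cause was not tested. Calls over all genes at 3 days, in either direction, moved too, from 4170 in the fit used here. They numbered 2846 without the filter, 4371 with equal library totals, 2966 without the trend and 5545 with the correction for base composition and length. With the replicate number as a term (replicate block), 9, 46 and 43 genes were lower in the 3 comparisons, and HEATR1 and RRN3 lost their 7-day call relative to SB. Same-numbered deviations correlated at 0.21 between SB and 3 days, -0.13 between SB and 7 days and -0.65 between 3 days and 7 days. The labels state no pairing, and these values do not settle whether same-numbered libraries were paired. With the 7-day numbers exchanged (crossed replicate block), 16, 50 and 48 genes were lower, and 1, UBTF, was higher at 7 days than at 3 days. Over all genes, the crossed block called 5404, 8763 and 5972 in either direction, against 4170, 7851 and 4775 without a block. With 1 library left out, the median log2 fold change ranged from -0.80 to -0.65 at 7 days relative to SB and from -0.61 to -0.53 between 7 days and 3 days. At 3 days POLR1A turned from 0.054 to -0.002 with equal library totals and to -0.12 with the GC correction, and GAR1 from -0.031 to 0.036 with the latter. With 1 library left out, the 3-day value relative to SB ranged from -0.056 to 0.16 for POLR1A, -0.13 to 0.072 for GAR1, -0.13 to 0.055 for NOP58, -0.20 to 0.15 for RRP12, -0.10 to 0.042 for UBTF, -0.14 to 0.016 for RRN3 and -0.14 to 0.017 for TAF1D. Over single named genes and settings, 1207 values kept their direction and side of the threshold, 45 lost and 29 gained a call, and 15 turned sign. Precision is limited by 2 libraries per group and by PPAN's low counts.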
